A study of Mus musculus with 9 samples.

Results

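The hippocampus of vehicle-treated BTBR mice (the group called Model) was compared with that of vehicle-treated C57BL/6J mice (the group called Con). The comparison uses 6 of the 9 libraries of the series, 3 of each strain, chosen by the strain and treatment in their labels. Of 57180 genes listed, 17201 passed a filter on low counts and were tested, and 27140 had no count in any of the 6 libraries. All 6 animals were males, 5 weeks old at the start, had vehicle injected into the tail vein for 7 days, and gave their tissue at 6 weeks. Model animals were BTBR and received vehicle alone, and Con animals were C57BL/6J and received the same vehicle. The vehicle is given as normal saline in one label and as PBS in another. Poly(A) RNA was sequenced as read pairs, and the labels call the replicates biological. The remaining 3 libraries, from BTBR mice given a nanomicelle carrying an S1P pathway inhibitor (MAN@SKI II), enter only where they are named.

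BTBR is an inbred strain used as a mouse model of autism-related behaviour. Its brain lacks a corpus callosum, and its hippocampal commissure is reduced. C57BL/6J is the strain of the mouse reference genome and the usual comparison strain, but it is not the parent of BTBR, so every inherited difference between the strains enters the comparison. The hippocampus holds the pyramidal neurons of the CA fields, the granule neurons of the dentate gyrus, inhibitory interneurons and glia. The choroid plexus, an epithelium that secretes cerebrospinal fluid, lies against it in the ventricle and expresses some genes, above all transthyretin (Ttr), at very high levels.

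The libraries held 15159694 to 18827093 counts, so 3 counts corresponded to 0.159 to 0.198 CPM (counts scaled to the library's size), and all levels below are normalised CPM. The first principal component held 55.9% of the variance and separated the strains, and on the second (13.1%) Model replicate 2 stood apart from the other 5 libraries, at -31.66. Of 12 thalamic and 15 neocortical markers tested none was called by edgeR or by DESeq2, and 3 of each had an unadjusted p under 0.05 (edgeR). Of 11 striatal markers 3 were called, all lower in Model (27.3%, against 12.1% over all genes tested), Penk and Tac1 among them. Of 16 meningeal markers 1 was called higher and 1 lower (12.5%). The 22 choroid plexus genes summed to 173, 513 and 184 CPM in Model replicates 1 to 3, against 3367, 1905 and 1273 CPM in Con replicates 1 to 3. All 3 Con sums exceeded all 3 Model sums, and the libraries also differed severalfold within each strain. The part that this tissue plays in the results was not tested, and values in its order among the libraries are pointed out where they occur. In whole tissue, fewer cells of a type and less RNA per cell cannot be told apart.

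At an adjusted p under 0.05 (edgeR's quasi-likelihood test, Benjamini-Hochberg over all genes tested), 2073 genes were called, which is 12.1% of those tested. Of these, 904 (5.26%) were higher in Model and 1169 (6.8%) were lower. The 2 groups did not overlap for 5557 genes (32.3% of those tested), and for all 2073 called genes. When single libraries were left out the count ran from 1374 to 1786, with the lowest count without Con replicate 2. Higher calls numbered 595 without Con replicate 1 and 569 without Con replicate 2. All 6 of these fits called 1038 of the 2073 genes (50.1%). Without the library of each strain with the highest choroid plexus level, Con replicate 1 and Model replicate 2, 1285 genes were called, 534 higher and 751 lower. With the choroid plexus level as a covariate, 150 genes were called, 69 higher and 81 lower. All 3 Con libraries had a higher level than all 3 Model libraries, so with this covariate most of the strain difference cannot be told apart from the choroid plexus level.

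Many of the differences were small. Of the called genes, 973 (46.9%) differed by under 0.5 on the log2 scale, 560 (27.0%) by at least 1, and 118 (5.69%) by at least 3. Large differences were more often lower than higher in Model: at 1 or more, 192 genes were higher and 368 lower, and at 3 or more, 32 were higher and 86 lower. The tested genes were divided into 5 bins of equal size by mean CPM, a level that is not scaled to gene length. In the lowest bin (0.315 to 2.64 CPM) 10.2% were called, and in the highest (69.0 CPM and above) 16.0%. In the highest bin more genes were higher (323) than lower (227) in Model, while in the lowest bin 122 were higher and 228 lower. In the highest bin the higher count was 183 without Con replicate 1 and 198 without Con replicate 2, and the lower count 139 without Con replicate 2 and 144 without Con replicate 3. In the lowest bin the higher count was 79 without Con replicate 2 and 80 without Model replicate 3 or Con replicate 3. The median standard error was 0.334 in the lowest bin and 0.0516 in the highest. The median size of a called difference was 1.83 in the lowest bin and 0.25 in the highest, on the log2 scale; at this depth small differences of rare genes were not detectable.

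**Figure D1:**
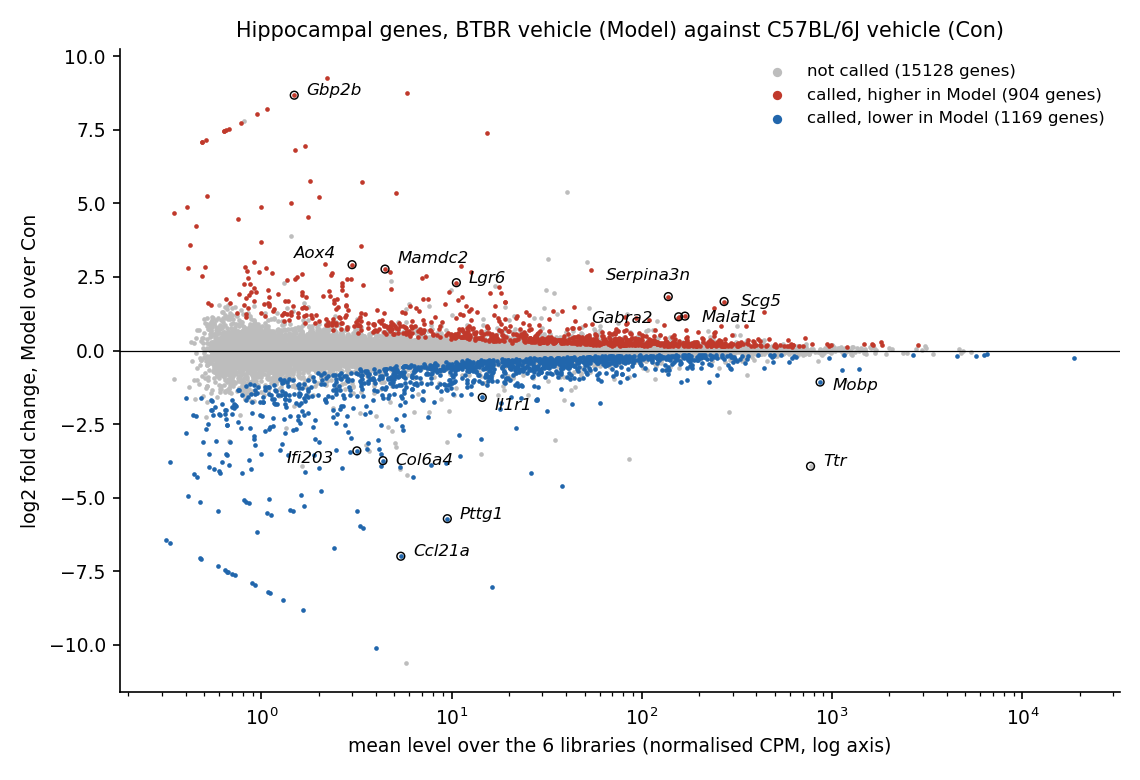
Each point is 1 of the 17201 genes tested: the horizontal axis (log scale) gives its mean CPM over the 6 libraries and the vertical axis its log2 fold change, Model over Con. Colours separate the 904 genes higher in Model, the 1169 lower in Model and the rest, and the called genes of the largest fold changes lie at low levels.

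Some genes had reads in 1 strain and almost none in the other. By a rule of at least 1 CPM in every library of one strain and at most 3 counts in every library of the other, 18 genes were detected in Model alone and 31 in Con alone. Of the 18, 10 are predicted genes and 4 have a near-identical copy; of the 31, 21 are predicted genes and 12 have such a copy. Gbp2b, an interferon-induced guanylate-binding protein, had 53, 52 and 49 counts in Model, against 0 counts in all 3 Con libraries. Its level was at least 17.0-fold higher in Model against a floor of 3 counts per library (adjusted p = 9.3e-05). Zfp264, a zinc finger protein, had 63, 26 and 66 counts in Model, against 0, 0 and 1 in Con. By the rule itself every Model library exceeded every Con library for both of these genes. The 3 libraries of BTBR mice given MAN@SKI II also held reads of Gbp2b (32, 24 and 36 counts). Catsperg2, an auxiliary subunit of the sperm calcium channel, had 34, 39 and 26 counts in Model, against 0, 3 and 0 in Con. Angptl7, an angiopoietin-like secreted protein, had 26, 22 and 27 counts in Model, against 2, 1 and 0 in Con. It lies within Mtor on the opposite strand, and without a known strand setting its reads are uncertain. Igha, the constant region of immunoglobulin A, had 60, 91 and 21 counts in Model, against 1, 0 and 0 in Con. Its call was lost whichever Con library was left out (adjusted p = 0.121, 0.051 and 0.0527 without Con replicates 1, 2 and 3).

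Ccl21a, a chemokine that guides T cells and dendritic cells into lymphoid tissue, had 0, 1 and 3 counts in Model, against 154, 203 and 189 counts in Con. Ccl28, a mucosal chemokine, had 3, 0 and 2 counts in Model, against 46, 52 and 61 in Con. Rec8, a meiotic cohesin subunit, had 1, 0 and 3 counts in Model, against 62, 49 and 54 in Con. By the rule of detection each Con library lay above each Model library for all 3 genes. The MAN@SKI II libraries, also of BTBR, held 3, 1 and 0 counts of Ccl21a. Trim30d, a tripartite-motif gene of an interferon-inducible family, had 0, 2 and 0 counts in Model, against 26, 24 and 33 in Con. Wfdc2, a secreted epithelial protein, had 0, 2 and 0 counts in Model, against 37, 22 and 19 in Con, in the order of the choroid plexus level within both strains. Steap1, a member of the choroid plexus list, had 0 counts in all Model libraries, against 50, 17 and 20 in Con. Its adjusted p was 0.0328, and the call was lost in 5 of the 6 fits that leave out a library. Counts of 0 or near 0 also occurred in single libraries of a strain whose other libraries held many counts. H1f10, a linker histone, had 626, 0 and 585 counts in Model, against 495, 513 and 599 in Con. Whether such losses touch the genes detected in 1 strain was not tested.

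Predicted genes, clones and pseudogenes were set aside here. Among the other called genes with at least 5 CPM in the higher strain, no overlap and no near-identical copy, the largest rises in Model were those of Aox4, Mamdc2, Lgr6, Cfap54, Pla2g4e, Serpina3n, Abhd1 and Dnah6. Aox4, an aldehyde oxidase, had 6.19, 4.59 and 5.09 CPM in Model, against 0.916, 0.888 and 0.321 CPM in Con, a log2 fold change of 2.92 ± 0.31 (SE, adjusted p = 0.000292). Mamdc2, a secreted proteoglycan, had 6.49, 9.59 and 7.33 CPM in Model, against 1.31, 0.829 and 1.28 CPM in Con (log2 fold change 2.77 ± 0.23, adjusted p = 6.56e-05). Lgr6, a receptor for R-spondins that marks epithelial stem cells (GRCm39 chromosome 1, 134911039 to 135033014), had 19.4, 17.3 and 16.2 CPM in Model, against 3.47, 3.55 and 3.64 CPM in Con. The 2 strains were far apart for each of them, and for Lgr6 (log2 fold change 2.31 ± 0.12, adjusted p = 2.7e-06) the 3 Con values lay within 0.2 CPM of each other. Serpina3n, a secreted serine protease inhibitor that rises in reactive astrocytes, had 226, 206 and 213 CPM in Model, against 58.7, 62.3 and 59.9 CPM in Con (log2 fold change 1.83 ± 0.05, adjusted p = 3.83e-08). Pla2g4e, a calcium-dependent enzyme that makes N-acyl phospholipids, had 29.1, 25.7 and 32.1 CPM in Model, against 7.59, 7.75 and 7.23 CPM in Con. Cfap54, a structural protein of motile cilia, averaged 25.3 ± 0.60 CPM in Model and 6.54 ± 1.77 CPM in Con (SD, n = 3 each). The axonemal dynein Dnah6 averaged 16.4 ± 2.12 CPM in Model and 5.08 ± 1.97 CPM in Con. Dnah6 followed the order of the choroid plexus level within both strains, although its change ran the other way. Abhd1 averaged 10.9 ± 0.39 CPM in Model and 3.22 ± 0.13 CPM in Con, but it overlaps Preb on the opposite strand and its reads are uncertain.

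The largest falls under the same conditions were those of Ccl21a, Pttg1, Eps8l1, Kcnj13, F5, Ecrg4, Col6a4 and Col8a2. Pttg1, the securin that restrains separase until anaphase (chromosome 11, 43311077 to 43317078), had 0.361, 0.407 and 0.28 CPM in Model, against 18.3, 18.1 and 19.5 CPM in Con. Its log2 fold change was -5.71 ± 0.17 (adjusted p = 4.85e-08), and it was detected in all 6 libraries. Col6a4, a collagen VI chain, had 0.661, 0.639 and 0.504 CPM in Model, against 8.71, 8.05 and 7.6 CPM in Con (log2 fold change -3.74 ± 0.19, adjusted p = 2.52e-06). Eps8l1, an actin regulator related to Eps8, had 0.902, 0.174 and 0.727 CPM in Model, against 9.3, 15.7 and 10.9 CPM in Con (log2 fold change -4.31 ± 0.41, adjusted p = 0.000889). None of these 3 genes followed the choroid plexus order, and their calls held when any single library was left out. The other 4 did follow it. Kcnj13, F5, Ecrg4 and Col8a2 had log2 fold changes of -3.91, -3.88, -3.81 and -3.51 with adjusted p of 0.0497, 0.0484, 0.0415 and 0.0307, and each call was lost in 4 or 5 of the 6 fits with a library left out. F5, coagulation factor V, had 0.481, 1.86 and 0.616 CPM in Model, against 25.7, 10.7 and 7.71 CPM in Con, and lost its call whichever Model library was left out, as Col8a2 did. Kcnj13, a potassium channel, overlaps Gigyf2 on the opposite strand.

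Some genes with many reads differed as clearly. Scg5, the chaperone 7B2 that neuroendocrine cells need to activate prohormone convertase 2, had 408, 428 and 398 CPM in Model, against 123, 129 and 138 CPM in Con. The log2 fold change was 1.66 ± 0.05 (adjusted p = 9.65e-08), and the spread within each strain was small beside the gap. Malat1, a nuclear long non-coding RNA, had 225, 244 and 231 CPM in Model, against 109.5, 104 and 97.5 CPM in Con (log2 fold change 1.17 ± 0.05, adjusted p = 1.46e-06). Malat1 followed the choroid plexus order within both strains, although its change ran the other way. Tfrc, the transferrin receptor, averaged 239.8 ± 18.5 CPM in Model, against 154 ± 4.28 CPM in Con (log2 fold change 0.64), and the neural adhesion molecule Chl1 averaged 349 ± 26.1 CPM in Model and 244 ± 14.3 CPM in Con (0.51). Tbc1d9b, which carries a Rab GTPase-activating domain, averaged 290.4 ± 2.66 CPM in Model and 191 ± 9.09 CPM in Con (0.61). Nnat averaged 211 ± 19.5 CPM in Model and 131 ± 12.7 CPM in Con, but it lies within Blcap on the opposite strand and its reads are uncertain.

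Among the genes of highest CPM that fell by at least 0.5 on the log2 scale were Mbp, Mobp, Mal, Gfap and Srgap3, and the first 3 named encode proteins of the myelin sheath. Mobp, a myelin-associated basic protein, had 554, 577 and 543 CPM in Model, against 1236, 1224 and 1055 CPM in Con (log2 fold change -1.07 ± 0.06, adjusted p = 1.1e-05). Mal, a proteolipid of myelin membranes, had 229, 236 and 229 CPM in Model, against 391, 367 and 311 CPM in Con (log2 fold change -0.62 ± 0.08, adjusted p = 0.00162). Both genes were lower in each Model library than in each Con library, and both followed the choroid plexus order. With the choroid plexus level as a covariate the log2 fold change of Mal was -0.34 (adjusted p = 0.518) and that of Mobp -0.85 (adjusted p = 0.0235). Mbp, the myelin basic protein, averaged 882 ± 81.5 CPM in Model, against 1385 ± 179 CPM in Con (log2 fold change -0.65 ± 0.12, adjusted p = 0.024), followed that order too, and its call was lost without Model replicate 1, 2 or 3 or Con replicate 2. Gfap, the intermediate filament of astrocytes, had 210.4, 254 and 231 CPM in Model, against 353, 330.3 and 365 CPM in Con (log2 fold change -0.59 ± 0.07, adjusted p = 0.000799), while Serpina3n, the other gene above that is known from reactive astrocytes, was higher. Srgap3, a Rac-directed GTPase-activating protein that shapes dendritic spines, averaged 346 ± 16.1 CPM in Model and 527 ± 16.5 CPM in Con (log2 fold change -0.61, adjusted p = 2.82e-05). When all 9 libraries were fitted together, the adjusted p of Srgap3 was 0.454. Over all genes that fit called 1340, and it called 2226 without MAN@SKI II replicate 2.

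**Figure D2:**
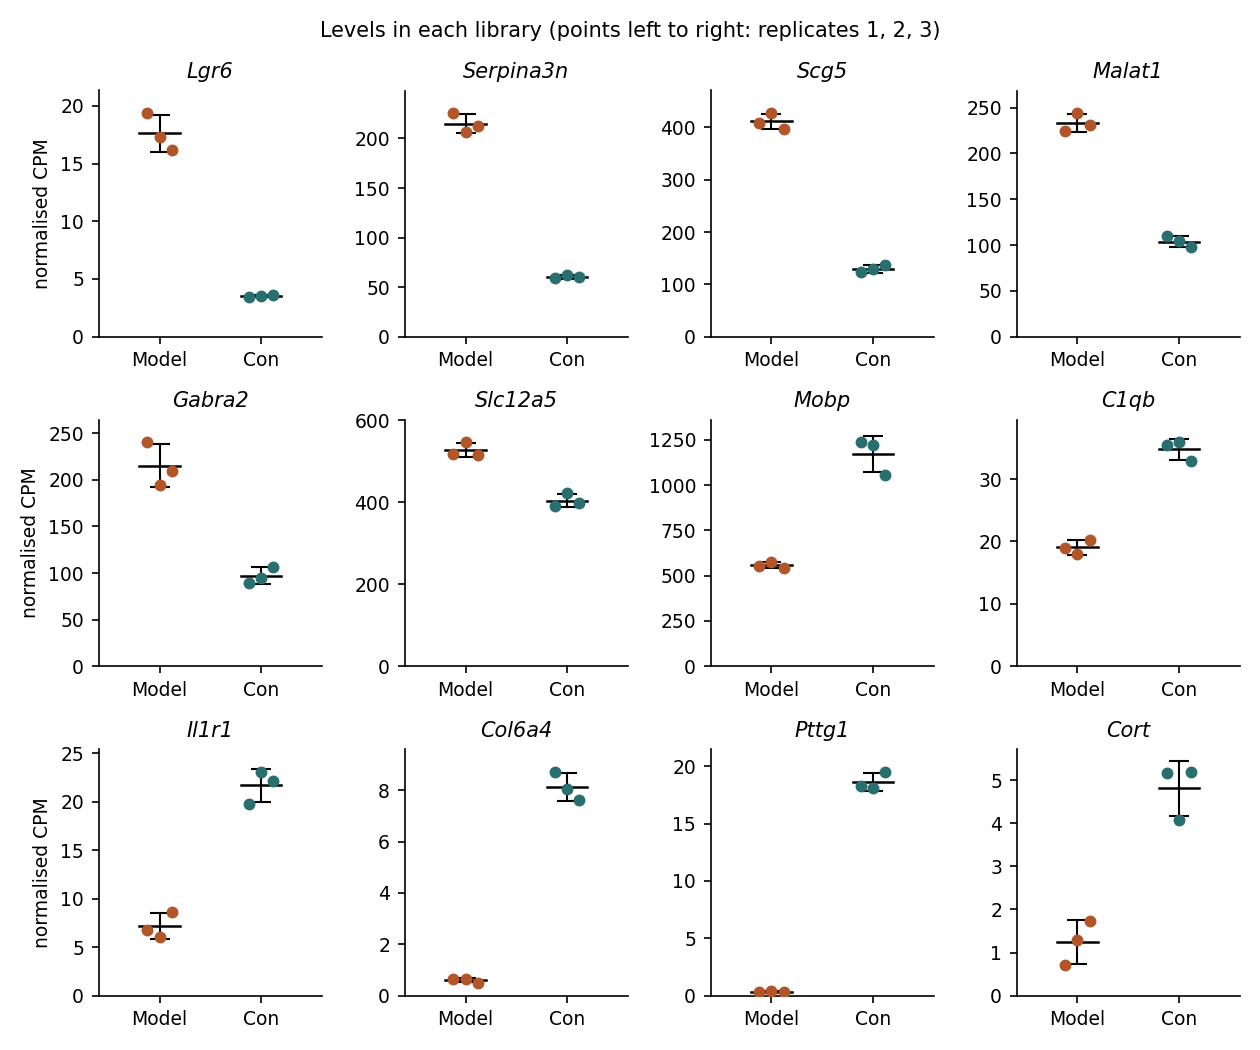
Normalised CPM of 12 genes in each library, with Model on the left and Con on the right of each panel; points are libraries, the horizontal mark is the mean and the bar its SD (n = 3 each), and each panel has its own axis. The groups do not overlap in any panel, from 408, 428 and 398 CPM of Scg5 in Model, against 123, 129 and 138 in Con, down to Pttg1 at under 1 CPM in Model.

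Among receptors for inhibitory transmitters the clearest change was a rise of Gabra2 in Model. Of 19 GABA and glycine receptor genes tested, 4 were higher and 2 lower. This is 31.6% called, against a background of 12.1% over all genes, and the median log2 fold change was 0.02. Gabra2, the alpha 2 subunit of the GABA-A receptor found at the axon initial segment, had 240.3, 195 and 210.1 CPM in Model, against 89.2, 95.2 and 107 CPM in Con. Its log2 fold change was 1.15 ± 0.09 (adjusted p = 0.000341), and the strains did not overlap. C57BL/6J is known to carry an intronic deletion in Gabra2 that lowers its expression. Gabrg3, a gamma subunit, averaged 29.5 ± 1.98 CPM in Model and 21.9 ± 1.88 CPM in Con (log2 fold change 0.43 ± 0.09, adjusted p = 0.0126). The beta subunits Gabrb1 and Gabrb2 were higher by 0.18 and 0.20 on the log2 scale, with adjusted p of 0.0294 and 0.0298. Gabrb1 lost its call in 5 of the 6 fits with a library left out, and Gabrb2 lost it without Model replicate 1, Con replicate 1 or Con replicate 2, so 2 genes of the class were called higher in each of those 3 fits. Glra2, the glycine receptor alpha 2 subunit, averaged 7.4 ± 1.23 CPM in Model, against 12.3 ± 0.66 CPM in Con (log2 fold change -0.73 ± 0.14, adjusted p = 0.00726), and it was the lower gene whose call held in every such fit. Gabrr2, a GABA receptor subunit known from the retina, was the other gene called lower, at under 2 CPM in every library.

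The 2 cation-chloride cotransporters that set the direction of GABA's current in neurons moved oppositely. Slc12a5 (KCC2), which carries chloride out of neurons, had 517, 546 and 516 CPM in Model, against 391, 421 and 397 CPM in Con (log2 fold change 0.38 ± 0.04, adjusted p = 0.000413). Slc12a2 (NKCC1), which carries chloride in, had 73.5, 82.5 and 75.3 CPM in Model, against 108, 104 and 98.9 CPM in Con (log2 fold change -0.43 ± 0.06, adjusted p = 0.0015). For both genes the 3 libraries of a strain lay on one side of the other strain. NKCC1 is also abundant in choroid plexus epithelium, and the Slc12a2 values followed the choroid plexus order within both strains. The part of that tissue in the fall of Slc12a2 was not tested. In all, 16 of 277 solute carriers were higher and 18 lower (12.3%, near the 12.1% over all genes tested), and without Model replicate 1 or Model replicate 3 the lower count was 11. Slc7a4, an orphan member of the cationic amino acid transporter family, had 60.2, 59.9 and 57.9 CPM in Model, against 28.9, 29.2 and 30.8 CPM in Con (log2 fold change 1.00 ± 0.06, adjusted p = 7.16e-06). In the fit of all 9 libraries its adjusted p was 0.118. Slc37a2, a sugar phosphate exchanger of the endoplasmic reticulum, averaged 0.81 ± 0.18 CPM in Model and 4.68 ± 1.08 CPM in Con (log2 fold change -2.51 ± 0.26, adjusted p = 0.00026).

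The muscarinic receptors Chrm3 and Chrm4 were higher in Model. Of 37 receptors for amines and acetylcholine 4 were called (10.8%, below the 12.1% over all genes tested), all of them higher, and the median log2 fold change was 0.17, against -0.00272 over all genes tested. Chrm3 averaged 78.7 ± 2.64 CPM in Model and 64.9 ± 1.72 CPM in Con (log2 fold change 0.28 ± 0.05, adjusted p = 0.00646). Chrm4 averaged 17.3 ± 1.73 CPM in Model and 11.3 ± 1.23 CPM in Con (0.61 ± 0.12, adjusted p = 0.00792). The other 2 were the serotonin-gated channel Htr3a and the nicotinic subunit Chrnb2. Htr3a lost its call without Model replicate 3, Con replicate 2 or Con replicate 3, and Chrnb2, which overlaps Adar, lost it in all 6 such fits, so 2 genes of the class were called without each of those 3 libraries. Sodium and calcium channels and their partners had 7 of 51 genes higher and 3 lower (19.6% called, against 12.1% over all genes tested). Scn2b, a sodium channel beta subunit, was higher by 0.26 ± 0.04 (321 ± 12.0 CPM in Model and 268 ± 6.67 CPM in Con, adjusted p = 0.00349), and Cacng5, an AMPA receptor regulator of the same family as stargazin, by 0.66 ± 0.12. Cacng5 followed the choroid plexus order within both strains, although its change ran the other way. Trpc6, a receptor-operated cation channel of dentate granule cells, was lower by 0.92 on the log2 scale (11.2 ± 1.13 CPM in Model and 21.3 ± 1.31 CPM in Con, adjusted p = 0.000391). The higher count of this class was 4 without Model replicate 1 or Model replicate 2, 3 without Con replicate 1 and 2 without Con replicate 2, and its lower count was 1 without Model replicate 1 or Model replicate 3. Potassium channels had 5 of 85 higher and 5 lower, and this share of 11.8% is near the background. Their higher count was 3 without Model replicate 3, 2 without Model replicate 1 or Con replicate 1 and 1 without Model replicate 2 or Con replicate 3, and their lower count was 3 without Model replicate 1, Con replicate 1 or Con replicate 2. The A-type channel partner Kcnip2 averaged 233 ± 4.54 CPM in Model and 199 ± 2.37 CPM in Con (log2 fold change 0.23). Its relative Kcnip3 averaged 57 ± 0.89 CPM in Model and 100.2 ± 5.96 CPM in Con (log2 fold change -0.81 ± 0.06, adjusted p = 1.73e-05).

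Cort, Npy and Sst, neuropeptides that hippocampal interneurons make, were lower in Model. Of 21 neuropeptide genes tested, 5 were called (23.8%, against 12.1% over all genes tested), all of them lower, with a median log2 fold change of -0.11. In the fit of all 9 libraries 2 were called. Cort, the somatostatin relative cortistatin, had 0.722, 1.28 and 1.73 CPM in Model, against 5.17, 4.08 and 5.19 CPM in Con (log2 fold change -1.94 ± 0.28, adjusted p = 0.00168). Npy, neuropeptide Y, had 14.9, 16.3 and 17.8 CPM in Model, against 23.4, 22.3 and 23.7 CPM in Con (log2 fold change -0.50 ± 0.09, adjusted p = 0.00584). The strains did not overlap for either gene. Penk, the enkephalin precursor, averaged 14.9 ± 1.06 CPM in Model and 21.7 ± 2.15 CPM in Con (log2 fold change -0.55). Sst, somatostatin, averaged 136 ± 13.3 CPM in Model, against 169 ± 1.99 CPM in Con (log2 fold change -0.32, adjusted p = 0.0136), and without Con replicate 3 its adjusted p was 0.054. Tac1, the substance P precursor, averaged 5.08 ± 0.44 CPM in Model, against 7.8 ± 0.60 CPM in Con, and its call was lost without Model replicate 1, Model replicate 3 or Con replicate 3. Without Con replicate 3, 3 peptide genes were called. The list of interneuron markers as a whole was divided, with 4 of 19 higher (Gad2, Calb2, Dlx1 and Htr3a) and Npy, Sst and Tac1 lower (36.8% called). None of these 4 higher calls held in all 6 fits with a library left out, and without Con replicate 3 the lower count was 1.

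Of 14 markers of dentate granule neurons 5 were called (35.7%, against 12.1% over all genes tested), all of them lower in Model. The median log2 fold change of the 14 was -0.33, and 4 to 7 were called lower when a library was left out. Their summed level was 822, 659.6 and 774 CPM in Model, against 944, 941 and 849 CPM in Con, without overlap. C1ql2, a synaptic organiser secreted by mossy fibres, had 42.9, 31.4 and 45.7 CPM in Model, against 76.7, 86.3 and 81.5 CPM in Con (log2 fold change -1.03 ± 0.14, adjusted p = 0.00592). Lct, which encodes lactase and marks granule cells, had 29.9, 25.5 and 29.3 CPM in Model, against 57, 50.2 and 50.7 CPM in Con (log2 fold change -0.90 ± 0.08, adjusted p = 0.000118). Plk5, a polo-like kinase expressed in brain, averaged 15.7 ± 1.31 CPM in Model and 22.3 ± 1.23 CPM in Con. All 3 had every Model library below every Con library, and none of the 14 markers followed the choroid plexus order. Of 20 markers of CA pyramidal neurons, 3 were higher and 2 lower (25.0% called). The 2 lower ones, the protease inhibitor Spink8 (5.81 ± 0.99 CPM in Model, against 16.6 ± 2.47 CPM in Con) and the deiodinase Iyd (1.28 ± 0.30 CPM in Model, against 5.71 ± 1.36 CPM in Con), fell by 1.52 and 2.15 on the log2 scale. The higher ones, Pou3f1, Rgs14 and Dcn, all lost their call without Con replicate 1.

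**Figure D3:**
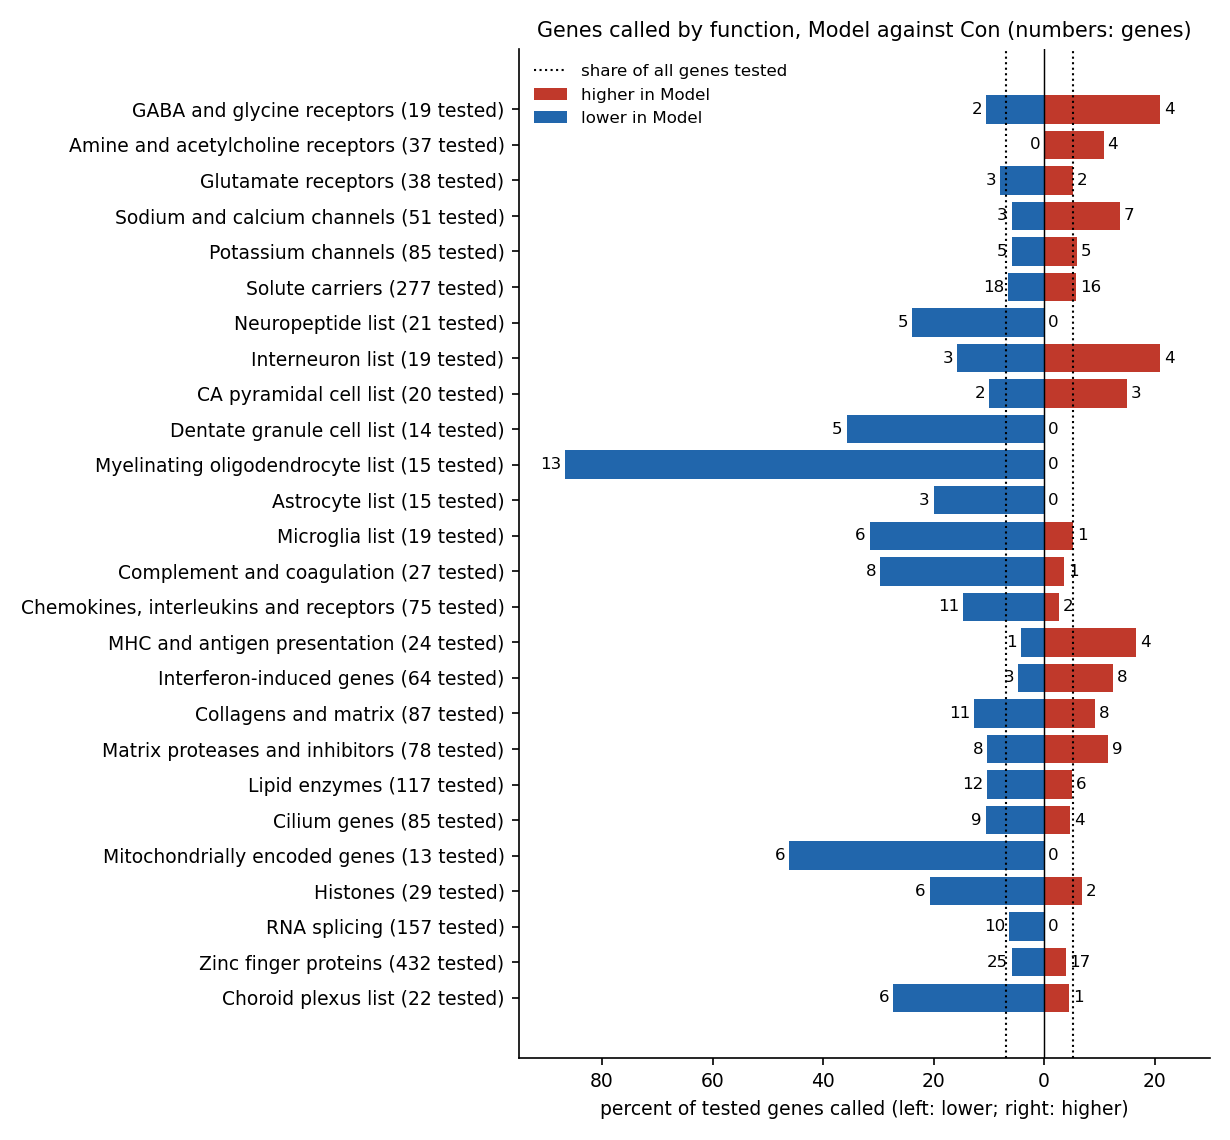
Percent of the tested genes of each group that were called (adjusted p under 0.05), with those lower in Model as bars to the left and those higher in Model as bars to the right; the dotted lines give the same shares over all 17201 genes, 6.8% lower and 5.26% higher. Myelin genes reach the largest share lower, 13 of 15.

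Genes of myelinating oligodendrocytes were lower in Model. Of 15 tested, 13 were called (86.7%, against 12.1% over all genes tested), all of them lower, with a median log2 fold change of -0.51. Their summed level was 3513, 3835 and 3454 CPM in Model, against 6298, 5686 and 5422 CPM in Con, and the 2 groups of sums did not overlap. Between 9 and 12 were called lower when a library was left out, and 13 were called without both Con replicate 1 and Model replicate 2 (median -0.57). Of the 15 genes, 7 followed the choroid plexus order among libraries, against 5.74% of all genes tested, and with the choroid plexus level as a covariate 1 was called and the median was -0.17. The summed level of the choroid plexus list moves with that of myelin here, and its part in the myelin result was not tested. Of 14 markers of oligodendrocyte precursors, Olig1 alone was called, lower, while 4 were called lower without Model replicate 2 and 2 without Con replicate 2. Among 15 astrocyte markers Gfap, Aldoc and Gjb6 were called, all lower. Aldoc, the brain form of aldolase, averaged 512 ± 38.5 CPM in Model and 668 ± 34.4 CPM in Con (log2 fold change -0.38). The call of Gjb6, a gap junction protein, was lost without Model replicate 1, Con replicate 1 or Con replicate 2.

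The microglial and complement genes that were called were mostly lower in Model. Of 19 microglial markers, 6 were lower and P2ry13 was higher (36.8% called, against 12.1% over all genes tested). P2ry13 lost its call without Model replicate 1, 2 or 3 or Con replicate 1 or 2. C1qb, a chain of the complement initiator C1q that microglia supply, had 18.9, 18.0 and 20.3 CPM in Model, against 35.5, 35.9 and 32.9 CPM in Con (log2 fold change -0.86 ± 0.08, adjusted p = 0.000103). C1qc averaged 18.5 ± 2.56 CPM in Model and 31.2 ± 1.15 CPM in Con (-0.75 ± 0.10). Fcrls, an Fc receptor-like gene typical of resident microglia, averaged 10.9 ± 1.43 CPM in Model and 20.3 ± 1.05 CPM in Con (-0.90 ± 0.11, adjusted p = 0.000682). The summed level of the list was 412 to 430.4 CPM in Model, against 489.6 to 534 CPM in Con, and no member followed the choroid plexus order. Among 27 complement and coagulation genes, 8 were lower and 1 higher (33.3% called). C4b, the complement C4 gene that glia express, had 18.5, 17.1 and 20.1 CPM in Model, against 34.2, 34.1 and 35.0 CPM in Con (log2 fold change -0.89 ± 0.08, adjusted p = 9.3e-05). Cd59a, which blocks the membrane attack complex, averaged 1.37 ± 0.22 CPM in Model and 3.56 ± 0.21 CPM in Con (-1.37). Masp2, a protease of the lectin pathway, was the higher gene, with 4.05 ± 0.76 CPM in Model, against 0.66 ± 0.29 CPM in Con (log2 fold change 2.62 ± 0.31, adjusted p = 0.000561). The lower count of this class was 5 without Model replicate 1 or Model replicate 2 and 4 without Con replicate 2.

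Cytokine genes were more often lower than higher. Of 75 chemokines, interleukins, growth factors of myeloid cells and their receptors, 11 were lower and 2 higher (median log2 fold change -0.11). This is 17.3% called, against 12.1% over all genes tested. The lower count was 7 without Model replicate 1 or Con replicate 1 and 6 without Model replicate 2 or Con replicate 2. Il1r1, the signalling receptor of interleukin 1 (chromosome 1, 40264240 to 40356417), had 6.79, 6.1 and 8.67 CPM in Model, against 19.8, 23.1 and 22.2 CPM in Con (log2 fold change -1.59 ± 0.13, adjusted p = 6.79e-05). Each Model value was below 10 CPM and each Con value above 19 CPM. Il18bp, the binding protein that neutralises interleukin 18, was lower by 1.25 on the log2 scale, but it overlaps Numa1 and its reads are uncertain. The 2 higher genes were Tnfrsf10b, a death receptor with a near-identical copy, and the chemokine Cxcl12, which lost its call without Con replicate 2 or Con replicate 3.

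Genes of antigen presentation and of the interferon response were divided. Of 24 MHC and antigen presentation genes, 4 were higher and 1 lower, with a median log2 fold change of 0.32. This is 20.8% called, against 12.1% over all genes tested. H2-Q4 averaged 10.7 ± 0.86 CPM in Model, against 6.4 ± 0.81 CPM in Con (0.75 ± 0.13, adjusted p = 0.00563), and the classical class I gene H2-D1 averaged 54.2 ± 3.88 CPM in Model and 39.7 ± 4.58 CPM in Con (0.45 ± 0.09, adjusted p = 0.0111). H2-T22 averaged 8.09 ± 0.32 CPM in Model and 16.1 ± 1.42 CPM in Con (-0.99 ± 0.11, adjusted p = 0.000296). Class I genes resemble each other and differ in sequence between strains, so the assignment of their reads is uncertain. The calls of H2-K1 and Psmb8 were lost in 5 and 6 of the 6 fits with a library left out. Without Model replicate 2, Model replicate 3, Con replicate 1 or Con replicate 2, 2 genes of the class were called higher, and without Model replicate 2, 2 were called lower. Of 64 genes matched by symbol as interferon-induced 8 were higher and 3 lower (17.2% called), with a median log2 fold change of 0.01. The 8 include Irf2bp1, which is named for binding an interferon regulatory factor and not for induction by interferon. Beside Gbp2b, Xaf1, a proapoptotic interferon target, had 9.32, 10.5 and 9.23 CPM in Model, against 4.45, 2.43 and 4.6 CPM in Con (log2 fold change 1.33 ± 0.21, adjusted p = 0.00335). Stat2, the transcription factor that carries the type I interferon signal, had 35.9, 38.6 and 39.5 CPM in Model, against 30.9, 28.1 and 29.7 CPM in Con (0.36 ± 0.07, adjusted p = 0.0103). Ifi203, a nuclear protein of the HIN-200 family, had 0.481, 0.407 and 0.727 CPM in Model, against 6.41, 5.09 and 5.94 CPM in Con (log2 fold change -3.41 ± 0.25, adjusted p = 2.21e-05). The strains did not overlap for any of these genes, whichever way they differed. The higher count of the class was 5 without Model replicate 1 or Model replicate 2, 3 without Con replicate 2 and 4 without Con replicate 3, and the lower count was 5 without Model replicate 2.

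Promoter sequence from RefSeq (GRCm38.p6, 250 bases before to 50 after the gene's start) was available for 6 of the 8 genes of this class higher in Model, Irf2bp1 among the 6. It was searched on both strands for the core that interferon-stimulated factors bind, GAAA and again GAAA with 2 bases of any kind (NN) between them. The motif was found for Gbp2b, Stat2 and Gbp7 (whose level followed the choroid plexus order), at 137, 222 and 53 bases before the start, each time on the minus strand (as TTTC, NN and TTTC), and in 3.44% (1131 of 32851) of all promoters of this length. The 2 promoters below belong to the gene detected in Model alone and to the transcription factor, and capitals mark the match. This is reference sequence, which is that of C57BL/6J, and the BTBR sequence was not used here. Members of the class that were not higher in Model were not searched, so the motif cannot be tied to the strain difference. A match is a description of the letters and does not show binding.
Gbp2b promoter (chr3:142594597-142594896, plus strand): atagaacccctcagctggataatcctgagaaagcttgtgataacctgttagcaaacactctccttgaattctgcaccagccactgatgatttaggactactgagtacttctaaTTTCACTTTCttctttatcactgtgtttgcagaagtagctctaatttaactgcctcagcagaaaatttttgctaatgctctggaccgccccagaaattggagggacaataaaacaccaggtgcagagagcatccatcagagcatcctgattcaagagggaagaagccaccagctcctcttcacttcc
Stat2 promoter (chr10:128270248-128270547, plus strand): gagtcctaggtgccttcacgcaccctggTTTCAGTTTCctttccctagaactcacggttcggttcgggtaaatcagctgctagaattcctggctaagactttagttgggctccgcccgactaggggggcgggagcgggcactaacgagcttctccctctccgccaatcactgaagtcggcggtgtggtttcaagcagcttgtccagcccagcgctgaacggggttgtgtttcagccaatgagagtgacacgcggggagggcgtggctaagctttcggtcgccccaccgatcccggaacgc

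Collagens and other matrix genes had 8 of 87 higher and 11 lower (21.8% called, against 12.1% over all genes tested). The higher count was 5 without Model replicate 3, Con replicate 1 or Con replicate 2. Beside the fall of Col6a4, a neighbouring collagen VI chain, Col6a6, was higher, with 4.63, 2.15 and 5.15 CPM in Model, against 0.851, 0.533 and 0.642 CPM in Con (log2 fold change 2.56 ± 0.38, adjusted p = 0.00245). The chains therefore differed in opposite directions. Col25a1, a transmembrane collagen of neurons, averaged 130.4 ± 4.71 CPM in Model and 103 ± 3.49 CPM in Con (log2 fold change 0.35). Sparc, a matricellular protein of glia, averaged 189.7 ± 3.38 CPM in Model, against 259.5 ± 13.6 CPM in Con (log2 fold change -0.45, adjusted p = 0.000248), and the synaptogenic thrombospondin Thbs4 averaged 6.06 ± 1.40 CPM in Model and 13.5 ± 0.85 CPM in Con (-1.15). Thbs4 followed the choroid plexus order, and Sparc did not.

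Among 117 enzymes of lipid metabolism, 6 were higher and 12 lower (15.4% called, against 12.1% over all genes tested). Lpl, lipoprotein lipase, averaged 112 ± 7.72 CPM in Model and 51.2 ± 6.80 CPM in Con (log2 fold change 1.13 ± 0.10, adjusted p = 0.000227). Acer2, a Golgi ceramidase that releases sphingosine, averaged 17.7 ± 5.31 CPM in Model and 6.15 ± 0.83 CPM in Con (1.53 ± 0.22, adjusted p = 0.0044). On the other side, Cers2, the synthase of very long chain ceramides, averaged 54.3 ± 2.89 CPM in Model, against 69.9 ± 1.92 CPM in Con (-0.36, adjusted p = 0.00279), and Elovl1, which lengthens fatty acids to that size, averaged 8.8 ± 1.84 CPM in Model and 17.5 ± 1.75 CPM in Con (-0.99, adjusted p = 0.0025). Both are used in making myelin lipid. Ptgs2 (COX-2), the inducible prostaglandin synthase that excitatory neurons express, averaged 10.3 ± 1.45 CPM in Model and 30.8 ± 3.28 CPM in Con (-1.58 ± 0.12, adjusted p = 3.69e-05). Of the 21 immediate early genes, 2 were higher and 3 lower (23.8% called), and Ptgs2 was among the lower while Junb was higher by 0.43. The balance of this list turned without Model replicate 1, with 5 higher and 1 lower. The higher count was 1 without Model replicate 2, Model replicate 3, Con replicate 1 or Con replicate 2, and the lower count was 1 without Con replicate 2 or Con replicate 3.

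Some groups of basic cell machinery had shares below the 12.1% over all genes tested. Of 157 genes matched by symbol as splicing genes, other helicases and RNA-binding proteins among them, 10 were called (6.37%), all of them lower. Their lower count was 6 without Con replicate 1 or Con replicate 3 and 4 without Con replicate 2. Zinc finger proteins had 17 of 432 higher and 25 lower (9.72%), and chaperones had 1 of 93 higher and 7 lower (8.6%). The higher count of zinc finger proteins was 11 without Model replicate 1 or Con replicate 3 and 9 without Model replicate 3, and their lower count was 16 without Con replicate 1. Of the chaperones 3 were lower without Con replicate 2, and 2 were higher without Con replicate 3. Of the 13 protein-coding genes of the mitochondrial genome, 6 were called (46.2%), all of them lower. All 13 had a negative log2 fold change, with a median of -0.13. mt-Co1, a cytochrome oxidase subunit, averaged 17195 ± 665 CPM in Model and 20309 ± 387 CPM in Con (-0.24 ± 0.03, adjusted p = 0.00132). mt-Nd3 averaged 153 ± 2.25 CPM in Model and 214 ± 12.7 CPM in Con (-0.48). Without Con replicate 2, 3 of these genes were called, and 1 was called in the fit of all 9 libraries. The share of counts from the mitochondrial genome was 6.39%, 6.26% and 6.75% in Model, against 7.09%, 7.12% and 7.15% in Con. Among single genes of other classes, Myo7a, an unconventional myosin of hair cells, averaged 3.13 ± 0.67 CPM in Model and 25.3 ± 1.43 CPM in Con (-3.01 ± 0.14, adjusted p = 1.46e-06). Bub1b, a spindle checkpoint kinase, averaged 0.48 ± 0.09 CPM in Model and 5.34 ± 1.08 CPM in Con (-3.44 ± 0.26, adjusted p = 3.48e-05).

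Choroid plexus genes themselves gave few calls for the size of their differences. Ttr had 13.5, 258 and 12.9 CPM in Model, against 2245, 1264 and 828 CPM in Con. The strains did not overlap, but the log2 fold change of -3.93 had a standard error of 1.57 and the adjusted p was 0.227. Of the 22 genes of the list 6 were lower and 1, the iodide transporter Slc5a5, was higher, with a median of -2.67. This is 31.8% called, against 12.1% over all genes tested. The lower count was 2 without Model replicate 1, 1 without Model replicate 3 and 3 without Con replicate 2, while DESeq2 called 17, and 17 were also called without both Con replicate 1 and Model replicate 2. Folr1, the folate receptor that carries folate into cerebrospinal fluid, averaged 0.41 ± 0.10 CPM in Model and 3.61 ± 2.03 CPM in Con (adjusted p = 0.00367). It overlaps Anapc15 on the opposite strand. Cldn2, a tight junction protein of leaky epithelia, averaged 1.23 ± 0.33 CPM in Model, against 7.29 ± 3.83 CPM in Con, and its call was lost whichever Model library was left out. With the mean level of the list as a covariate, the median log2 fold change of its members was -0.07. The covariate was made from these same 22 genes, so this shrinkage was fixed in advance.

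All genes tested, those of the list included, were sorted by whether they followed the order of the choroid plexus level among libraries. The order was Con replicate 1 above Con replicate 2 above Con replicate 3, and Model replicate 2 highest of the Model libraries. It was met by 987 of the 17201 genes tested (5.74%). Among the genes lower in Model 94 of 1169 met it (8.04%), and among the higher ones 37 of 904 (4.09%). Of the 22 choroid plexus genes 14 (63.6%) met it, but their own mean level set the order. Of the 7 called genes of that list 3 met it. Of the 368 genes lower by at least 1 on the log2 scale, 44 (12.0%) met it. Ependymal genes met it in 8 of 19 cases, and their summed level was 74 to 95.5 CPM in Model, against 88.8 to 113 CPM in Con, with overlap. One ependymal gene, Mia, was called lower (it has near-identical copies), and it followed the order. Its call was lost without Model replicate 3 or Con replicate 1, and without Model replicate 2, 6 ependymal genes were called lower. Serpina3n, Lgr6 and Col6a4 did not follow the order, and their levels were alike in the 3 libraries of each strain.

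**Figure D4:**
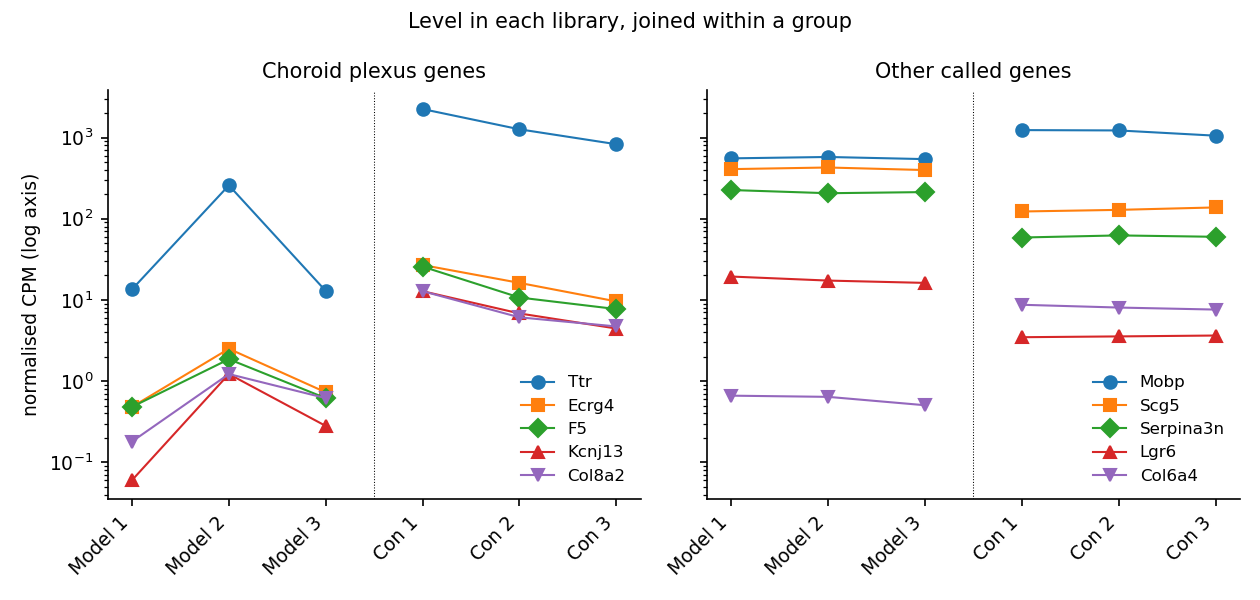
Normalised CPM (log axis) in the 3 Model libraries (left) and the 3 Con libraries (right) for 5 genes that follow the choroid plexus level (left panel: Ttr, Ecrg4, F5, Kcnj13, Col8a2) and for 5 other named genes (right panel: Mobp, Scg5, Serpina3n, Lgr6, Col6a4). Genes of the left panel are highest in replicate 2 of Model, and highest in replicate 1 and lowest in replicate 3 of Con, as Ttr is at 2245 and 828 CPM. Mobp, in the right panel, follows the same order, while Serpina3n, Lgr6 and Col6a4 are level within each strain.

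Called genes were spread over all chromosomes, with some unevenness. Chromosome 7 had 14.6% of its 1346 tested genes called (95 higher and 102 lower), chromosome 1 had 14.4% of 1041 (47 higher and 103 lower), and the X chromosome had 6.54% of 612 (18 higher and 22 lower). Differences of at least 1 on the log2 scale made up 5.19% of the tested genes of chromosome 1, 5.05% of chromosome 7 and 0.654% of the X chromosome. Chromosome 1 and chromosome 4 (46 higher and 91 lower) leaned towards lower calls, also in each fit with a library left out. The higher count of chromosome 1 was 28 without Con replicate 1 and 30 without Con replicate 2, and its lower count 68 without Con replicate 2. On chromosome 4 the higher count was 30 without Model replicate 1 and 28 without Con replicate 1, and the lower count 55 without Con replicate 2. On chromosome 7 the higher count was 61 without Model replicate 3. On the X chromosome leaving out a library gave as few as 9 higher calls (without Model replicate 3) and 12 lower ones (without Model replicate 1 or Con replicate 1). Neighbouring genes share chromatin, haplotype and sometimes transcripts, so they are not independent.

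**Figure D5:**
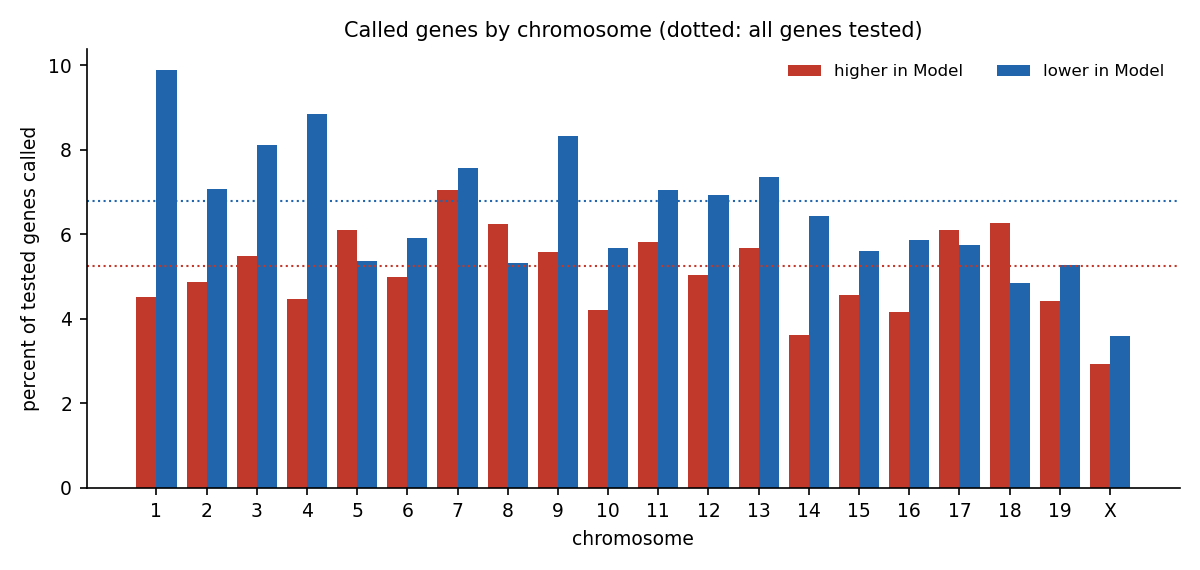
Percent of the tested genes on each chromosome (1 to 19 and X) that were called higher or lower in Model (adjusted p under 0.05); the dotted lines give the shares over all genes, 5.26% higher and 6.8% lower. Chromosome 1 has 9.89% lower, and the X chromosome has the smallest shares, 2.94% higher and 3.59% lower.

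In windows of 15 neighbouring tested genes the median number called was 2, and 178 of 16900 windows (1.05%) held 7 or more. The highest number was 10, in 2 places. On chromosome 3 from 36053982 to 37395669 (GRCm39), 5 genes were higher, among them Bbs7, a subunit of the BBSome that carries cargo to cilia (log2 fold change 0.55), and Anxa5, a phosphatidylserine-binding annexin (0.39). Another 5 were lower, among them the exosome subunit Exosc9 (-0.83), which overlaps Ccna2 on the opposite strand, and Bbs12. On chromosome 11 from 58758042 to 59096960, 8 were lower, among them the zinc finger gene Zfp39 (-0.61), and 2 were higher. Windows on chromosomes 9, 10, 14 and 17 held 9 called genes each, and 5 of the 9 on chromosome 10 have near-identical copies. In the window on chromosome 9 from 105520177 to 106308767 the collagen VI chains Col6a6 and Col6a5 were higher. Col6a4, the centriole protein Poc1a (-1.08) and the phosphatase Ppm1m (-0.78) were lower there. Rpl29 was also called lower there, but the sum over its family of copies was higher (0.55). The call of Col6a5 was lost in 4 of the 6 fits with a library left out. On chromosome 1 from 135087972 to 135934080, 8 of 15 genes were called and all 8 were lower. Shisa4, a transmembrane protein of the Shisa family, had 48.3, 46.7 and 50.1 CPM in Model, against 78.5, 84.4 and 81.9 CPM in Con there (log2 fold change -0.76 ± 0.05, adjusted p = 2.21e-05). Lgr6, which was higher in Model, lies just before that window. A window on chromosome 2 from 119485927 to 120075816 holds both Pla2g4e, which was higher, and its relative Pla2g4b, which was lower (0.42 ± 0.42 CPM in Model and 4.52 ± 0.73 CPM in Con). Pla2g4b has near-identical copies and overlaps a neighbour, so its reads are uncertain.

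Of 10 genes listed because laboratory strains are known to differ in their sequence, 1 (Gabra2) was higher and 4 (Pttg1, Ccl21a, Glo1 and Draxin) were lower. Of the 10 gene IDs tested 50.0% were called, against 12.1% over all genes tested. The list was chosen for known strain differences, so a high share is no separate result. Draxin, a repulsive guidance protein needed for the forebrain commissures, had 0.782, 0.465 and 1.12 CPM in Model, against 2.68, 2.9 and 2.19 CPM in Con (log2 fold change -1.70 ± 0.31, adjusted p = 0.0067). All Model values were below all Con values, and it overlaps Mad2l2 on the opposite strand. Disc1 (-0.64, adjusted p = 0.177) and Itpr3 (-0.29, adjusted p = 0.377) did not pass. The 2 gene IDs named Nnt had log2 fold changes of 0.96 and 0.07 with adjusted p of 0.18 and 0.819, and Il11ra2 had no count in the 6 libraries. Glo1 was lower by 0.76 on the log2 scale but has a near-identical copy, and the sum over the family differed by -0.35.

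Reads that fit nearly as well on a copy can be counted there in one strain and not in the other. Of 1914 tested genes with a near-identical copy elsewhere 117 were higher and 127 lower (12.7%), against 787 and 1042 of the 15287 without one (12.0%). Pseudogenes had 102 of 987 higher and 38 lower (14.2% called). Long non-coding RNAs and unclassified transcripts had 50 of 1523 higher and 133 lower (12.0% called, against 12.1% over all genes tested). Rpl14, a ribosomal protein, averaged 2.97 ± 0.46 CPM in Model and 72.8 ± 0.74 CPM in Con, but its family of copies summed to 149 CPM in Model and 144 CPM in Con. Eno1b averaged 210.3 ± 7.55 CPM in Model, against 98.7 ± 5.43 CPM in Con, and its family summed to 325 CPM in Model and 330 CPM in Con. For Rpl28, Amd2 and Ndufs5 the family sums differed by 0.03, 0.13 and -0.06 on the log2 scale, where the single genes differed by 1.41, 1.33 and -1.99. Ube2v2 and Hmga1b kept a difference in the family sum, of -0.85 and 0.68, where the single genes differed by -2.65 and 1.64. Rpl29 differed by -4.15 alone and by 0.55 in the sum, with 109 CPM in Model and 74.9 CPM in Con for the family. With all such families summed, 1919 features were called, 824 higher and 1095 lower.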

How the data were processed

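Per the labels' protocols, poly(A) RNA of hippocampus was sequenced from both fragment ends (Illumina). The deposited table holds raw counts per gene, whole numbers with no normalisation, per the file headers. It also holds FPKM values, which the authors computed; they imply the same gene length in every library (to within 0.0044% over 14190 genes) and served only as that check. The submitters' processing notes name Bowtie2, HISAT2 2.0.4, StringTie 1.3.3b and edgeR 3.2.0 and the build GRCm39. What each tool did, which program counted and with what strand setting is not given in the sources used here, so reads of overlapping genes on opposite strands cannot be told apart.

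The 6 libraries of the comparison were fitted alone, with edgeR 4.0.16 in R 4.3.3: filterByExpr, TMM factors (0.992 to 1.01), robust quasi-likelihood with strain as the only term, two-sided F test, Benjamini-Hochberg over 17201 genes. The common dispersion was 0.0141 and the median SE of a log2 fold change 0.111. At an unadjusted p under 0.05, 4425 genes passed. Every adjusted p is from this test unless another is named. SEs are those implied by the F statistic. Counts of this comparison were also simulated, for 16995 genes. The test found 52.2% of 67 differences of 1.5-fold, 82.1% of 67 of 2-fold and 98.5% of 66 of 4-fold. Of its 172 calls 17 were false, a larger share than the threshold of 0.05 aims at. The simulation held far fewer changed genes than the 2073 called in the data, so its share of false calls need not hold there. Totals were 15159694 to 18827093 counts per library; a floor of 3 counts covers counting error alone, as PCR duplicates are no separate molecules.

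The comparison, gene lists, gene classes and tests were chosen with earlier results of these data known, and the symbol patterns of some classes were corrected after mismatched members were seen. Named genes were the 8 largest rises and falls among called genes of at least 5 CPM in the higher strain with no overlap, no near-identical copy and no symbol of a predicted gene, clone or pseudogene; the 6 most abundant called genes per direction at 0.5 or more on the log2 scale, under the same conditions; up to 6 per direction detected in 1 strain; up to 4 called genes per direction of each group discussed; Ttr; 10 strain-variant genes; and up to 4 genes with copies per direction. Some genes that this rule selects, and 1 gene class, are not reported here. H1f10, Bbs12, Olig1 and a few members named to complete a small count were chosen after their values were seen. BLAST 2.17.0 was used to find near-identical genes among GENCODE M21 transcripts. Coordinates are those of the deposited table (GRCm39); promoters are from RefSeq (GRCm38.p6), matched by symbol. Figures were drawn with matplotlib 3.10.9 in Python 3.11.15. Alternatives were RLE factors, no filter, a 1 CPM filter, all 9 or 8 libraries in the fit, a replicate block, the choroid plexus level as a covariate, copies left out or summed, each library left out, DESeq2 1.42.0 and limma-voom (limma 3.58.1). Summed families and the fit without Con replicate 1 and Model replicate 2 were added after seeing the data.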

Additional observations from a re-analysis of the deposited data

How the results depend on the processing

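The count of 2073 called genes stayed within 1.5 times with RLE factors, no filter, the 1 CPM filter, the fit of 8 libraries, copies left out or summed, DESeq2 (1785) and limma-voom (2020). It was 1340, with 546 higher, in the fit of all 9 libraries, and 150 (69 higher, 81 lower) with the choroid plexus covariate. The fit of 8 libraries left out MAN@SKI II replicate 2, which held 9.626% mitochondrial counts, and called 2226 genes. Among the genes that could be named, 108 calls were lost with all 9 libraries and 15 with those 8. Leaving out 1 library gave 1374 to 1786 calls, 569 to 766 higher and 788 to 1020 lower; leaving out Con replicate 1 and Model replicate 2 together gave 1285, 534 and 751. With the replicate number as a block 1457 genes were called; same-numbered libraries did not deviate together (correlations of -0.033, -0.0697 and 0.0119), so the numbers pair no animals. Of the 366 called genes that could be named, 246 kept their call in all 6 fits with a library left out.

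Directions turned in the following cases. With families of near-identical genes summed, the log2 fold change was -0.0173 for Eno1b, 0.0547 for Rpl14, 0.55 for Rpl29, 0.10 for Mia, 0.13 for Rps26, 0.0435 for Ndufa12, 0.0522 for Psmb5, -0.28 for Trim34b and -0.89 for H2bc23; the sum adds the copies' counts. With the covariate it was 0.95 for Ttr, 0.0231 for Itpr3, 0.0828 for Plxnb3, 0.0102 for Tgfbi and -0.0752 for Nnt ENSMUSG00000116207, 1 of 2 gene IDs of that name, and the cause was not tested. Nnt ENSMUSG00000116207, which was not called, was also at -0.0898 without Model replicate 1, and at 0.2161 without Model replicate 3. With 3 libraries a strain at this depth, changes under 1.5-fold and genes of few reads were often beyond detection.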

Other observations

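Some genes jumped between libraries of one strain. By a rule set after the values were seen, at least 8-fold between libraries of a strain and at least 200 counts in the highest, 34 tested genes did so. Of the 34, 7 were gamma-protocadherins, cell-surface identity proteins whose transcripts share their last exons. Pcdhga1 had 4299, 164 and 135 counts in Model, against 137, 241 and 198 in Con, while Pcdhgc4 had 171, 205 and 269 counts in Model, against 3494, 3956 and 274 in Con. The 22 gamma-protocadherin genes together held 12162, 12074 and 13383 counts in Model, against 10414, 11499 and 13374 in Con.

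Immunoglobulin reads varied between libraries of a strain. Igkc, the kappa constant region, had 33, 93 and 14 counts in Model, against 0, 1 and 8 in Con (adjusted p = 0.11), and Ighg1 had 6, 45 and 0 counts in Model, against 0 in all Con libraries. Ighm had 128, 198 and 130 counts in Model, against 135, 111 and 145 in Con. Pet117, a mitochondrial assembly factor gene with near-identical copies, had 61, 44 and 79 counts in Model and 1 count in each Con library, but 1, 1 and 72 counts in the MAN@SKI II libraries of the same strain.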
